A study of Capra hircus with 20 samples.

Results

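The genes described here make, package, take up and break down the monoamine transmitters, and were followed in the hypothalamus of female Jining grey goats between birth and the age of sexual maturation. They are TH, DDC, SLC18A2, SLC6A3, HDC, TPH2, SLC6A4, DBH and MAOB, chosen by symbol and matched to the deposited rows through the gene identifiers of the goat annotation. Of these 9 genes, 8 have a matched row among the 21071 deposited genes. MAOB, which codes for monoamine oxidase B, was not analysed here, and neither was MAOA. The 20 goats fell into 4 stages of 5 goats each, D1 (day 1), M2 (day 60), M4 (day 120) and M6 (day 180), and each goat gave 1 RNA library. All were healthy, were reared under the same conditions and were slaughtered on the same day. The values are FPKM (fragments scaled by exon length and by the size of the library), so levels per length can be set side by side between genes. All the goats were female and of 1 breed, and how the hypothalamus block was delimited is not given in the sources used here.

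Dopamine is made from tyrosine by tyrosine hydroxylase (TH) and aromatic L-amino acid decarboxylase (DDC), loaded into vesicles by the vesicular monoamine transporter (SLC18A2) and taken back up by the dopamine transporter (SLC6A3). Noradrenaline neurons add dopamine beta-hydroxylase (DBH), serotonin neurons use tryptophan hydroxylase (TPH2) with DDC and the serotonin transporter (SLC6A4), and histamine neurons use histidine decarboxylase (HDC). In the mammalian brain the cell bodies of histamine neurons lie in the posterior hypothalamus, and some dopamine neurons lie in the arcuate nucleus and nearby. The large dopamine groups of the ventral midbrain lie just behind the hypothalamus, and the cell bodies of serotonin and noradrenaline neurons lie in the brainstem.

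The libraries differed in the brain regions whose marker genes they held. The summed level of 11 genes of hypothalamic neurons, among them AVP, OXT, PMCH and HCRT, ranged from 1.46 to 917 FPKM over the 20 libraries, with a median of 13.6 FPKM. GHRH, a hypothalamic releasing hormone gene, was listed at 0 in all libraries but 1, and NKX2-1, a transcription factor of the developing hypothalamus, was listed at 0 in 4 libraries. Markers of cortex and striatum (SLC17A7, TBR1, NEUROD6, ADORA2A and PPP1R1B) summed to 284 FPKM in D1 replicate 4, 61.1 in M2 replicate 4, 106 in M4 replicate 1 and 121 in M6 replicate 2, against at most 7.45 FPKM in the other 16 libraries. Markers of thalamus (TCF7L2, LEF1 and GBX2) summed to 113 FPKM in M4 replicate 2 and to at most 38.4 FPKM elsewhere. The stage comparisons were therefore also run without these 5 libraries. The FPKM values carry no counts, so the sequencing depth behind each value is unknown.

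TH, the rate-limiting enzyme of dopamine synthesis, was at a high level in 7 of the 20 libraries and near 0 in the others. At D1 its level was 0.0942, 31.1, 0.191, 0 and 16.8 FPKM in replicates 1 to 5, and at M2 it was 0.300, 56.3, 26.8, 0 and 0 FPKM. At M4 it was 0, 0, 1.12, 21.4 and 31.3 FPKM, and at M6 it was 0.0499, 0, 0, 0.964 and 47.1 FPKM. Every stage thus had at least 1 library over 16 FPKM and at least 1 listed at 0, and the 4 groups overlapped over nearly their whole range. No library lay between 1.12 and 16.8 FPKM. The gene lies on chromosome 29 from 50402134 to 50409520 (ARS1.2).

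SLC6A3 (chromosome 20, 71014677 to 71048556), which returns dopamine to the neuron and marks dopamine neurons more narrowly than TH, followed the same pattern. At D1 its level was 0.0670, 59.2, 0.0380, 0 and 27.6 FPKM, and at M2 it was 0.575, 56.3, 37.3, 0.103 and 0.158 FPKM. At M4 it was 0, 0, 3.31, 22.6 and 47.1 FPKM, and at M6 it was 0.355, 0, 0, 0.520 and 52.3 FPKM. The 7 libraries with the highest TH were also the 7 with the highest SLC6A3, with at least 22.6 FPKM against at most 3.31 FPKM in the other 13. The SD of SLC6A3 within stages, 4.12 on the log2(FPKM + 0.1) scale, was the largest of all 16771 genes tested. The median of all genes tested was 0.57, and TH stood at 4.04.

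SLC18A2 (chromosome 26, 14370138 to 14415125), which fills the vesicles of all monoamine neurons, had the highest mean of the 8 genes, 26.9 FPKM over the 20 libraries. At D1 its level was 2.56, 93.8, 1.06, 0.360 and 62.2 FPKM, and at M2 it was 2.31, 133, 12.6, 3.66 and 0.506 FPKM. At M4 it was 0.187, 0.188, 4.30, 53.2 and 114 FPKM, and at M6 it was 0.839, 0.347, 0.396, 5.87 and 47.1 FPKM. It was above 0 in all 20 libraries, unlike TH and SLC6A3. Its 7 highest libraries were again those of TH, although M2 replicate 3 and M6 replicate 4 were separated only by 12.6 against 5.87 FPKM.

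DDC (chromosome 4, 115071265 to 115170771), the decarboxylase shared by dopamine and serotonin neurons, was at 1.77, 39.5, 2.01, 0.554 and 6.21 FPKM at D1 and at 2.09, 58.1, 5.49, 1.39 and 1.64 FPKM at M2. In M4 goats it was at 0.0601, 1.11, 1.98, 18.9 and 29.2 FPKM, and at M6 it was at 1.01, 0.364, 0.118, 5.12 and 39.0 FPKM. The 7 libraries were the same once more, but the margin was small, since M2 replicate 3 had 5.49 FPKM and M6 replicate 4 had 5.12 FPKM. DDC also kept a level of at least 1 FPKM in 16 libraries, against 8 libraries for TH. Outside dopamine neurons, DDC is known from serotonin neurons and from brain cells that hold no other enzyme of the pathway.

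**Figure D1:**
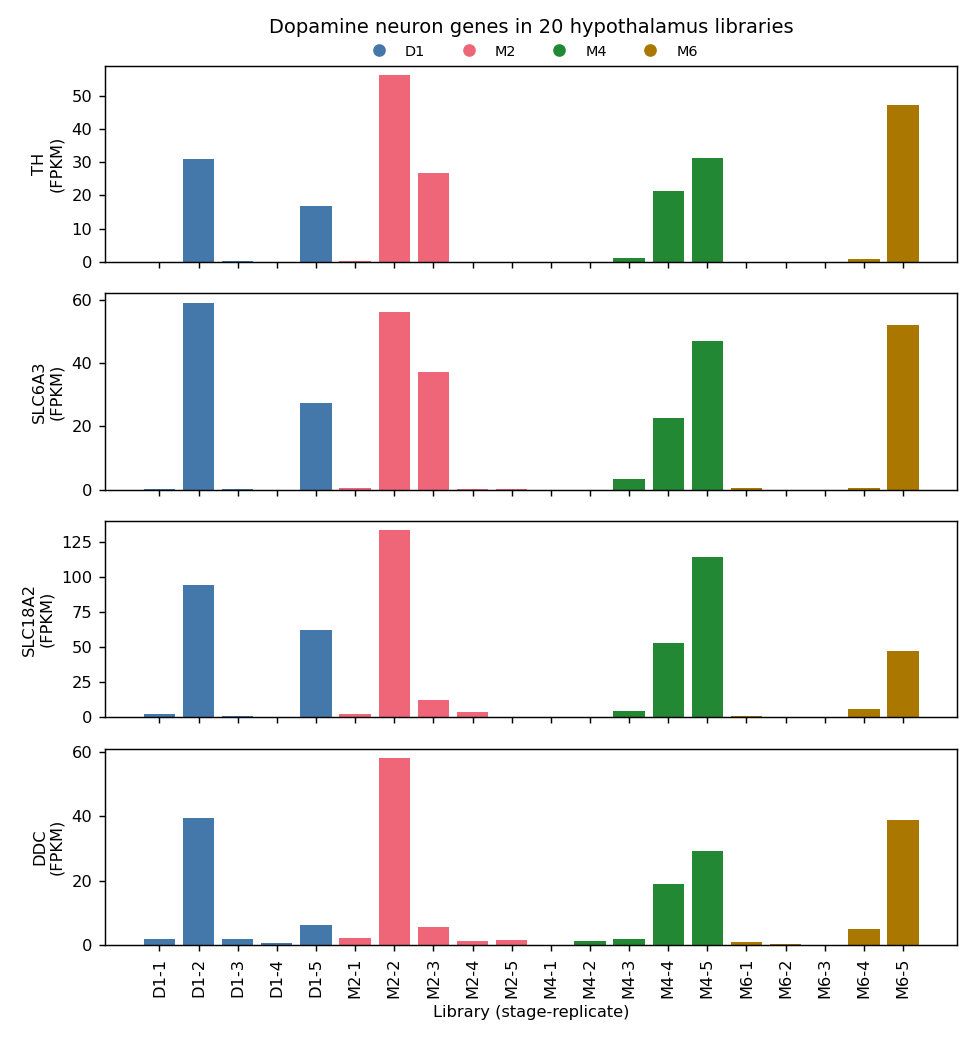
Level (FPKM, linear axes starting at 0) of TH, SLC6A3, SLC18A2 and DDC in each of the 20 libraries, 1 bar per library, coloured by stage. The 7 tallest bars of each panel stand at the same libraries, D1 replicates 2 and 5, M2 replicates 2 and 3, M4 replicates 4 and 5 and M6 replicate 5. Among these, M2 replicate 3 is low for SLC18A2 and DDC, and D1 replicate 5 is low for DDC.

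The 7 libraries were 2 of D1, 2 of M2, 2 of M4 and 1 of M6. Of the 16771 genes tested, 19 (0.113%) had the same 7 libraries as their highest, with TH, which sets the order, counted among them. The pattern of these 4 genes thus ran across goats within each stage. Since TH fell into separate sets of libraries, tests of correlation between these 4 genes are reported only within each set. The same 6 pairs were also tested over the 20 libraries, where the 2 sets by themselves raise r. Those tests enter only the adjustment over 28 pairs given below. The cut between the sets was placed on TH itself after the data were seen. TH was listed at 0 in 7 of the 13 low libraries, among them the 5 with high cortical, striatal or thalamic markers. The part of these regional differences in the correlations was not tested. Within the 13 libraries with low TH, Pearson's r of log2(FPKM + 0.1) between TH and SLC6A3 was 0.83 (adjusted permutation p = 0.00836) and Spearman's rho was 0.78 (adjusted permutation p = 0.00762). Without the 2 libraries farthest from the median of TH, r was 0.61 (permutation p = 0.0385, unadjusted, n = 11). For TH and SLC18A2 in the 13 libraries, r was 0.77 (adjusted permutation p = 0.00836) and rho was 0.76 (adjusted permutation p = 0.00762), and r without the 2 farthest libraries was 0.58 (permutation p = 0.0573, unadjusted). Both r values thus fell without those 2 libraries. Leaving out libraries with extreme TH also narrows its range, so this check cannot tell how far the 2 relations rested on them. In the 7 libraries with high TH, r was 0.82 for TH and SLC6A3 (adjusted exact permutation p = 0.0539) and 0.32 for TH and SLC18A2 (adjusted exact permutation p = 0.505), and none of the 6 pairs of genes passed the threshold. Permutation tests were two-sided, and p values were adjusted over the 12 relations, 6 pairs in each of the 2 sets of libraries.

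**Figure D2:**
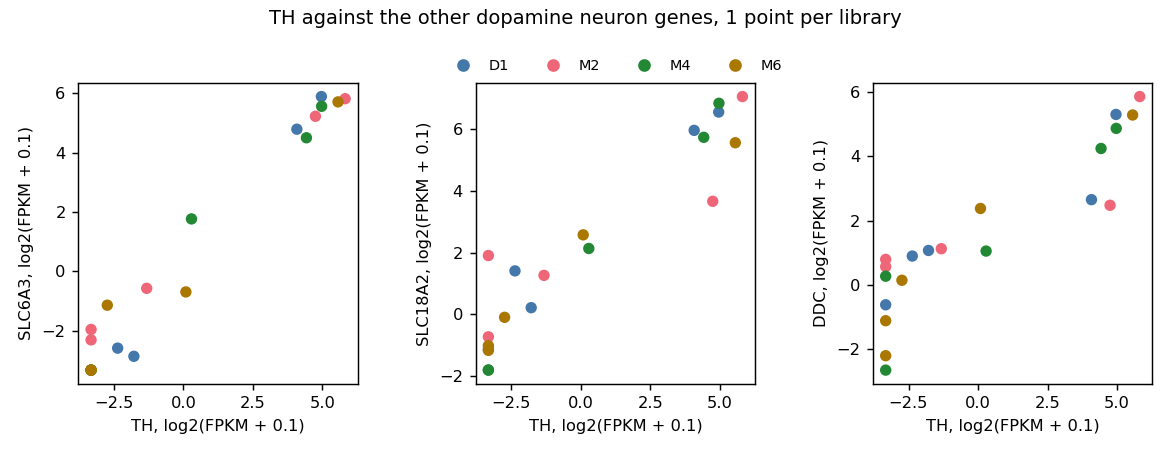
SLC6A3, SLC18A2 and DDC against TH, each as log2(FPKM + 0.1), with 1 point per library coloured by stage. The points form an upper set of 7 libraries and a lower set of 13, and each set holds all 4 stages.

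The proportions of the dopamine genes also differed between goats. Among the 8 libraries with at least 1 FPKM of TH, DDC and SLC6A3, the ratio of SLC6A3 to TH lay between 1.00 and 2.95. The ratio of TH to DDC ranged from 0.566 in M4 replicate 3 to 4.88 in M2 replicate 3. SLC18A2 was above TH in 6 of these 8 libraries, by up to 3.83 times, was at 0.999 of its level in M6 replicate 5 and was below it in M2 replicate 3, at 0.470 of the level of TH. The M2 replicate 3 library was thus low in DDC and SLC18A2 for its TH. Between stages, the log2 ratios of TH to DDC and of SLC6A3 to TH gave no adjusted p under 1 in 12 exact permutation tests, whose smallest unadjusted p was 0.159 (two-sided, n = 5 per stage, smallest possible 0.0079). That value was for SLC6A3 to TH in M2 vs. D1, a difference of 0.65 in log2 ratio, which was -0.052 with 1 FPKM added in place of 0.1 and 1.96 with 0.01 FPKM added.

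Transcription factors of midbrain dopamine neurons were mostly at their highest in these libraries too. EN1, FOXA1, FOXA2 and PITX3, which specify or maintain those neurons, had the same 7 highest libraries as TH. Of their 7 highest libraries, NR4A2 and EN2 shared 6 with TH, and LMX1A and LMX1B shared 5. LMX1B was at 0.723 FPKM in M6 replicate 2, where TH was listed at 0, and at 0.306 FPKM in M4 replicate 4. EN1 was between 1.34 and 3.82 FPKM in the 7 libraries and at most 0.648 FPKM in the other 13. PITX3 was between 0.777 and 4.85 FPKM against at most 0.607 FPKM. Over the whole list of 8 such factors, which also holds NR4A2, LMX1A, LMX1B and EN2, all 8 were above 0 in each of the 7 libraries and in D1 replicate 1, and the summed level in the 7 was between 12.0 and 30.9 FPKM. In the other 13 libraries it was between 0.652 and 2.77 FPKM, apart from 10.2 FPKM in M4 replicate 3, where EN2 was at 4.94 FPKM and TH at 1.12 FPKM. By stage, the sum of the 8 factors ranged from 0.935 to 21.7 FPKM at D1, from 1.2 to 30.9 at M2, from 0.652 to 17.5 at M4 and from 1.21 to 15.9 at M6. The part of midbrain tissue in the levels of the 4 dopamine genes was not tested. In tissue libraries such as these, fewer cells of a type and less RNA per cell cannot be told apart.

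ALDH1A1, an aldehyde dehydrogenase of a subset of midbrain dopamine neurons that acts on the aldehyde formed from dopamine, also had the same 7 highest libraries. Its level there was between 46.1 and 655 FPKM, against at most 8.45 FPKM in the other 13. The other 10 of the 19 genes, named after their values were seen, were ARMC9, ASB4, CHRNA6, CHRNB3, MYBPC1, NTN1, NTSR1, PLXDC1, RET and STBD1. CHRNA6 and CHRNB3 code for nicotinic receptor subunits, RET for the receptor of glial cell line-derived neurotrophic factor and NTSR1 for a neurotensin receptor, and all are known from midbrain dopamine neurons. CHRNA6 was at 6.71 FPKM or more in the 7 libraries and at most 1.44 FPKM in the others.

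The hypothalamic markers were distributed otherwise. Of the 7 libraries with high TH, M4 replicate 4 had 494 FPKM and M6 replicate 5 had 917 FPKM of summed hypothalamic markers, while the other 5 had between 3.09 and 14.3 FPKM. D1 replicate 1 and M6 replicate 4, with 528 and 715 FPKM of the same markers, had 0.0942 and 0.964 FPKM of TH. Among libraries rich in hypothalamic peptides, TH was thus high in some and low in others.

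**Figure D3:**
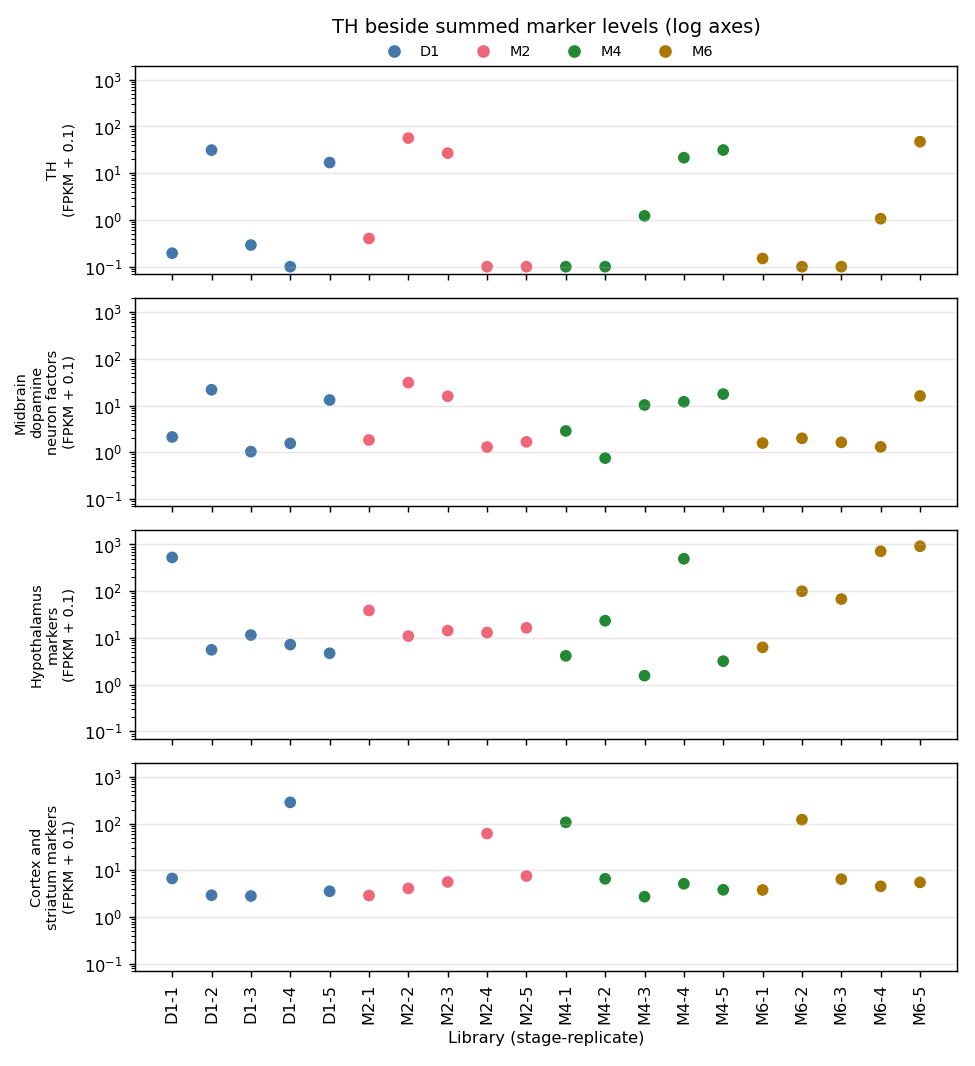
TH and the summed levels of 8 midbrain dopamine neuron factors, 11 hypothalamus markers and 5 cortex and striatum markers in each library, as FPKM + 0.1 on log axes, 1 point per library coloured by stage. The libraries with high TH stand high for the midbrain factors, and of these 7 only M4 replicate 4 and M6 replicate 5 also stand high for the hypothalamus markers.

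Over all 20 libraries, the genes whose pattern was most like that of each dopamine gene were largely the other dopamine genes. This is given as a description without a test, since the genes were searched for their likeness among all genes with a mean of at least 1 FPKM, and all points share the 2 sets of libraries. For TH the closest were SLC6A3 (r = 0.98, rho = 0.93), SLC18A2 (r = 0.95, rho = 0.91) and CHRNB3 (r = 0.94, rho = 0.80). RET was the closest to DDC (r = 0.95, rho = 0.93), before SLC18A2 and TH. RET was also the third for SLC18A2 (r = 0.94, rho = 0.92), after TH and SLC6A3. For SLC6A3 the third gene after TH and SLC18A2 was EN2 (r = 0.93, rho = 0.85).

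HDC (chromosome 10, 43152035 to 43174053), which makes histamine, was at a low level and was above 1 FPKM in 1 library of each stage. At D1 its level was 2.77, 0, 0.0384, 0.0280 and 0 FPKM, and at M2 it was 0, 1.41, 0, 0.162 and 0 FPKM. At M4 it was 0.0129, 0.184, 0, 0.0821 and 1.57 FPKM, and at M6 it was 0.0149, 0, 0.0596, 0.105 and 3.54 FPKM. Between 0.184 and 1.41 FPKM there was no library, so HDC too was either present or near 0, and it was listed at 0 in 7 libraries. Of its 4 libraries, M2 replicate 2, M4 replicate 5 and M6 replicate 5 were also among those with high TH, and D1 replicate 1 was not.

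In D1 replicate 1 HDC was at 2.77 FPKM beside 0.0942 FPKM of TH, 0.0670 of SLC6A3, 2.56 of SLC18A2 and 1.77 of DDC. SLC18A2 packages histamine as well. PMCH, the peptide gene of melanin-concentrating hormone neurons of the lateral hypothalamus, had its 2 highest levels in the 2 libraries with the highest HDC, 303 FPKM in D1 replicate 1 and 375 FPKM in M6 replicate 5. In M2 replicate 2 and M4 replicate 5 PMCH was at 2.19 and 0.291 FPKM. Mast cells also make histamine, and their markers CPA3 and MS4A2 were at most 0.423 and 0.139 FPKM in any library. In D1 replicate 1, CPA3 was at 0.143 FPKM and FCER1A at 0.183 FPKM, the third and the second highest of the 20 libraries. In M2 replicate 2 and M4 replicate 5 both were listed at 0, and MS4A2 was listed at 0 in all 4 libraries with HDC above 1 FPKM. KIT, which mast cells share with neurons, was above 0 in every library, and the 4 mast cell genes, together summed to between 1.19 and 29.8 FPKM. Their part in the level of HDC was not tested. The genes most like HDC in pattern were SCAMP3 (r = 0.68, rho = 0.56), LOC102183974 (r = 0.68, rho = 0.62) and ATP8A2 (r = 0.63, rho = 0.51), a looser likeness than that of the dopamine genes.

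The serotonin genes were low in all libraries. TPH2 (chromosome 5, 1351624 to 1452871), the enzyme of neuronal serotonin synthesis, was at 0.704, 0.407, 0.119, 1.16 and 0.205 FPKM at D1 and at 0.347, 0.316, 0.123, 0.583 and 0.537 FPKM at M2. In M4 goats it was at 0.308, 0.324, 0, 0.0622 and 0.163 FPKM, and at M6 it was at 0.428, 0.412, 0.453, 1.3 and 0.412 FPKM. The highest M4 library, 0.324 FPKM, lay below the lowest M6 library, 0.412 FPKM, while the other stages overlapped with both. Groups that do not overlap were found for 0.775% of all genes tested in M6 vs. M4. FEV, a transcription factor of serotonin neurons, was listed at 0 in 18 libraries and reached 0.134 FPKM.

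SLC6A4 (chromosome 19, 21106896 to 21139848), which takes up serotonin, was at 1.02, 0.589, 0.603, 0.306 and 0.351 FPKM at D1 and at 0.204, 0.437, 1.10, 0.580 and 1.92 FPKM at M2. In M4 goats it was at 0.313, 0.0551, 3.44, 0.131 and 0.162 FPKM, and at M6 it was at 0.744, 0.491, 2.58, 0.816 and 0.721 FPKM. The levels of the stages overlapped, and M4 replicate 3 and M6 replicate 3 stood above the rest. In M4 replicate 3, TPH2 was listed at 0. The transporter and the enzyme did not share their highest libraries, since TPH2 was highest in M6 replicate 4 and D1 replicate 4. Described as above, the genes most like TPH2 were ANKRD66 (r = 0.83, rho = 0.73), ELP5 (r = 0.77, rho = 0.59) and GRTP1 (r = 0.77, rho = 0.64). Those most like SLC6A4 were LOC102178878 (r = 0.70, rho = 0.69), NRROS (r = 0.69, rho = 0.58) and POLD2 (r = 0.69, rho = 0.69).

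DBH (chromosome 11, 103904801 to 103922928), the enzyme that turns dopamine into noradrenaline, was at most 0.286 FPKM in 19 libraries and at 2.88 FPKM in M6 replicate 3. That library held 65.6% of its FPKM summed over all 20. In the same library TH was listed at 0 and DDC was at 0.118 FPKM. PHOX2A, a transcription factor of noradrenaline neurons, and SLC6A2, the noradrenaline transporter, were listed at 0 there too. SLC6A4, at 2.58 FPKM, was also high in M6 replicate 3. The genes most like DBH, ATP8B1 (r = 0.75, rho = 0.40), PARN (r = 0.75, rho = 0.17) and C7H5orf30 (r = 0.74, rho = 0.81), all had their highest level in M6 replicate 3 as well.

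**Figure D4:**
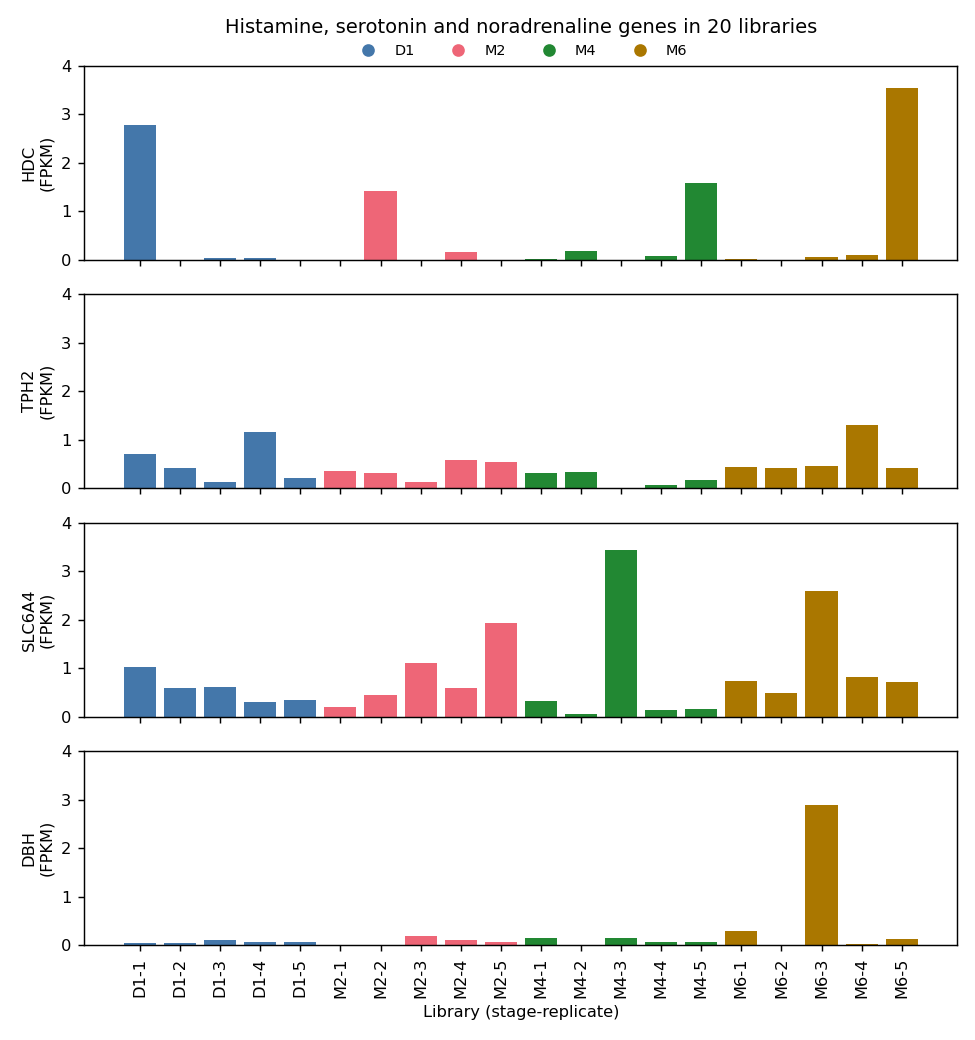
Level (FPKM, linear axes from 0 to 4) of HDC, TPH2, SLC6A4 and DBH in each of the 20 libraries, 1 bar per library, coloured by stage. HDC is above 1 FPKM in 1 library of each stage, DBH only in M6 replicate 3, and TPH2 stays at or below 1.3 FPKM.

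By mean FPKM over the 20 libraries the order of the genes was SLC18A2 (26.9), SLC6A3 (15.4), TH (11.7), DDC (10.8), SLC6A4 (0.828), HDC (0.499), TPH2 (0.418) and DBH (0.220). Down to TPH2, the means of neighbours in this order differed by less than the SD, at every stage, of at least 1 gene of the pair. The medians were 3.11 FPKM for SLC18A2 and 2.00 for DDC, but only 0.438 for SLC6A3 and 0.246 for TH.

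The stage comparisons ask whether transmitter genes change between birth and 6 months. The 8 genes reached 0.1 FPKM in 5 or more libraries, the level needed to be tested, and were compared with limma on log2(FPKM + 0.1), with a call requiring an adjusted p under 0.05 over all 16771 genes together with a change of 1 or more on the log2 scale, up or down. By limma, 0 of the 8 genes were called in any of the 6 comparisons, beside 0.0% of all genes in M2 vs. D1, M4 vs. M2, M6 vs. M4 and M6 vs. M2, 0.0537% in M4 vs. D1 and 0.00596% in M6 vs. D1. At an unadjusted p under 0.05 there were 2 calls in the 48 tests, both of TPH2, 1 in M6 vs. M4 and 1 in M4 vs. D1, where 6.87% and 8.71% of all genes passed. From D1 to M2 the share of all genes at that unadjusted level was 15.6%, from M2 to M4 it was 8.68%, from D1 to M6 it was 7.41% and from M2 to M6 it was 6.14%, with 0 of the 8 genes in each. The F test of limma for any difference among the stages gave 0 of the 8 genes (smallest adjusted p = 0.497, TPH2), beside 0.00596% of all genes. At an unadjusted p under 0.05 the F test gave 0 of the 8 genes and 10.4% of all genes. Groups without overlap were found for TPH2 in M6 vs. M4 and for 0 of the 8 genes in the other comparisons, beside 3.82% of all genes between D1 and M2, 1.09% between M2 and M4, 1.93% between D1 and M4, 2.84% between D1 and M6 and 0.757% between M2 and M6. The median log2 fold change of the 8 genes ran from -0.45 in M6 vs. M2 to 0.12 in M2 vs. D1, where the medians of all genes tested were 0.02 and -0.07.

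TH averaged 9.64 ± 14.0 FPKM (SD, n = 5) in the D1 goats, 16.7 ± 25.0 in the M2 goats, 10.8 ± 14.7 in the M4 goats and 9.63 ± 21.0 in the M6 goats. The SDs exceeded the means at every stage. Its smallest p was in M6 vs. M4, with a log2 fold change of -1.36 and a 95% confidence interval from -6.11 to 3.40 (limma adjusted p = 0.932). The interval is wide enough to hold large changes in either direction, so a stage difference in TH was not detectable in these goats. For SLC6A3 the corresponding log2 fold change was -1.80 in M6 vs. M2 (interval -6.63 to 3.04), for SLC18A2 it was -1.46 in M6 vs. M2 (interval -5.41 to 2.49) and for DDC it was -1.27 in M6 vs. M2 (interval -4.39 to 1.86). Leaving out M2 replicate 2 moved these 3 values to -0.65, -0.35 and -0.34, and leaving out M6 replicate 5 moved them to -3.36, -2.56 and -2.36. For TH the value was -0.26 without M4 replicate 5 and -2.93 without M6 replicate 5. In the 15 libraries without high cortical, striatal or thalamic markers, the log2 fold change of TH in M6 vs. M4 was -3.33 (standard error 2.50, limma adjusted p = 0.995), so its size depended on which libraries were included.

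The smallest p among the 8 genes was that of TPH2 in M6 vs. M4. Its mean was 0.171 ± 0.144 FPKM (SD, n = 5) at M4 and 0.601 ± 0.391 at M6, and the log2 fold change was 1.44 (standard error 0.52, limma adjusted p = 0.700). In M4 vs. D1, where D1 had 0.520 ± 0.424 FPKM, it was -1.11 (standard error 0.52, limma adjusted p = 0.567). Neither passed the threshold, and at these levels the added 0.1 FPKM lowers the fold change. SLC6A4 had a log2 fold change of 1.24 in M6 vs. M4 (interval -0.20 to 2.68), DBH of 1.01 in M6 vs. M2 (interval -0.39 to 2.42) and HDC of 0.36 in M6 vs. M2 (interval -1.95 to 2.66), each in the comparison with its smallest p. Without M6 replicate 3 the value of DBH was 0.20, and without M4 replicate 3 that of SLC6A4 was 2.00. The value of HDC changed sign without M6 replicate 5, to -0.58, and was 1.07 without M2 replicate 2.

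**Figure D5:**
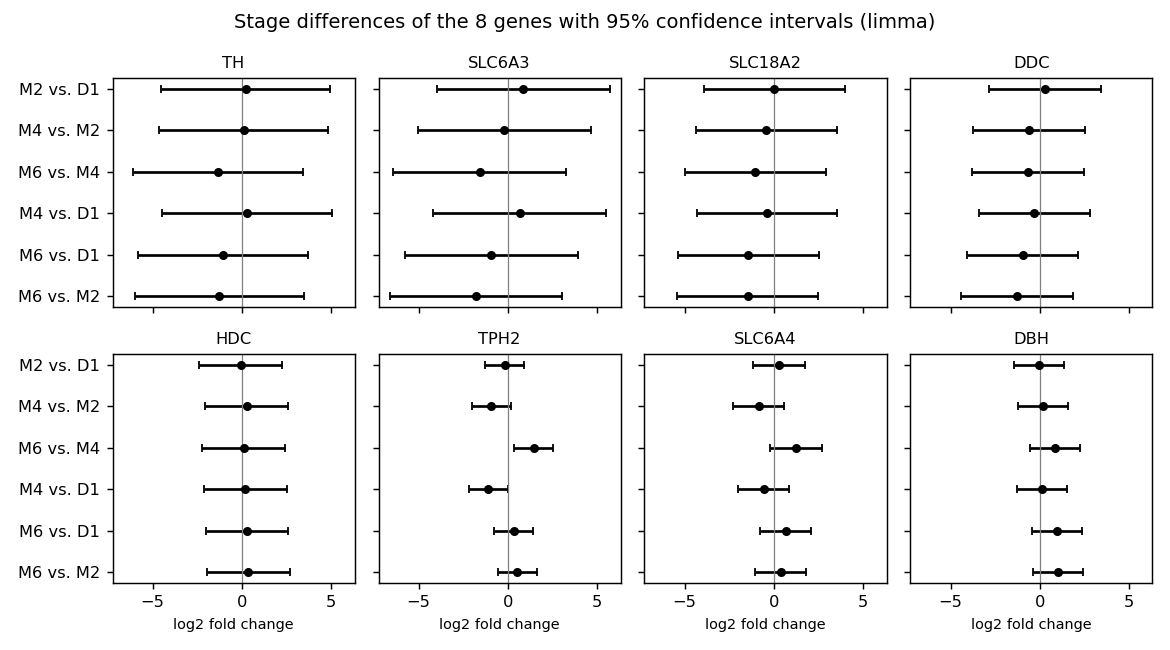
Log2 fold changes, on the log2(FPKM + 0.1) scale, of the 8 genes in the 6 stage comparisons, with points for the limma estimate, bars for its 95% confidence interval and a line at 0. The intervals of TH, SLC6A3, SLC18A2 and DDC all hold 0, and those that exclude 0 are TPH2 in M6 vs. M4 and M4 vs. D1, which did not pass after adjustment.

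The other 22 pairs of the 8 genes, each with at least 1 of HDC, TPH2, SLC6A4 and DBH, were tested over the 20 libraries, with p values adjusted over all 28 pairs. None of the 22 had an adjusted permutation p under 0.05 for both Pearson's r and Spearman's rho. For SLC6A4 and DBH, r over the 20 libraries was 0.54 (adjusted permutation p = 0.0459) and rho was 0.46 (adjusted permutation p = 0.160). Without the 2 libraries farthest from the median of SLC6A4, r was 0.56 and rho was 0.30 (adjusted permutation p = 0.0598 and 0.525). With each stage mean removed, the same pair passed on both measures, with r at 0.53 (adjusted permutation p = 0.00852) and rho at 0.67 (adjusted permutation p = 0.00968). The 28 pairs include the 6 among TH, DDC, SLC18A2 and SLC6A3, whose very small p values make the adjustment milder for the others. A pass over the 22 pairs alone was not shown. M6 replicate 3 holds the highest DBH and the second highest SLC6A4. It was not 1 of the 2 libraries left out, so that check did not test how far the pair rests on it.

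The remaining genes of the pathways were taken from 8 lists, with 49 rows in all, of which 42 passed the filter. By limma, 0 of the 42 had an adjusted p under 0.05 in any comparison, and 17 of 252 tests (6.75%) had an unadjusted p under 0.05, with 10 of these higher at the later stage. Over the same 6 comparisons 8.9% of the tests of all genes did so. The share of the lists was the lower in M2 vs. D1 (7.14% against 15.6%), M4 vs. M2, M4 vs. D1 and M6 vs. D1. It was the higher in M6 vs. M4 (7.14% against 6.87%) and M6 vs. M2 (7.14% against 6.14%). The lists held no MAOA row, and AANAT, the enzyme before melatonin, has 2 rows whose reads may be shared. The tetrahydrobiopterin cofactor, which TH and TPH2 need, is made from GTP by GCH1 as the first enzyme, under the control of its regulator GCHFR. GCH1 ranged from 1.38 FPKM in D1 replicate 4 to 19.4 FPKM in M2 replicate 2, and GCHFR from 2.15 to 5.66 FPKM. Of the 7 highest libraries of each gene, 6 were among those of TH for GCH1 and for GCHFR. The same count was 5 for QDPR, 4 for SPR, 3 for PTS and 1 for PCBD1, the other genes of the list. Its median over all genes tested was 2, and the share of all genes with a count of 6 is not given here. QDPR and PCBD1, which recycle the cofactor, had means of 110 and 21.8 FPKM over all libraries, and QDPR was at 35.0 FPKM or more in every library. The smallest p of the list were those of PCBD1 (log2 fold change -1.23, limma adjusted p = 0.355) and SPR (-0.47, limma adjusted p = 0.374), both in M2 vs. D1.

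Among the genes of breakdown, ALDH2 had a mean of 13.3 FPKM and HNMT, which inactivates histamine, 11.6 FPKM. HNMT was found in every library, at 6.09 FPKM or more, including those with almost no TH or HDC. ALDH2 had a log2 fold change of 0.69 in M4 vs. D1 (standard error 0.27, limma adjusted p = 0.488), and with library quality weights it was 0.91 (limma adjusted p = 0.0488). With those weights 0.388% of all genes were called in M4 vs. D1, against 0.0537% in the main fit. These calls also require a change of 1 or more on the log2 scale, which ALDH2 did not reach. HNMT had -0.30 in M2 vs. D1 (limma adjusted p = 0.610). Of the other transporters, SLC22A3 and SLC29A4, low-affinity carriers of monoamines, had means of 2.66 and 1.36 FPKM, and SLC29A4 had a log2 fold change of -1.96 in M4 vs. M2 (standard error 0.57, limma adjusted p = 0.472). For SLC22A3 it was -0.75 in M4 vs. D1 (limma adjusted p = 0.576). Among the other enzymes of synthesis, TPH1 had a mean of 0.186 FPKM and the higher AANAT row 0.214 FPKM.

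DRD1, the main dopamine receptor gene of the striatum, was high in other libraries than the dopamine enzymes. It was at 151 FPKM in D1 replicate 4, 57.2 in M2 replicate 4 and 56.4 in M6 replicate 2, and at most 10.1 FPKM in the other 17. These 3 libraries were the highest for PPP1R1B, a marker of striatum, at 226, 48.1 and 102 FPKM, and TH was listed at 0 in all 3. DRD2, which is also the autoreceptor of dopamine neurons, shared 4 of its 7 highest libraries with TH. It was at 3.51 FPKM in M6 replicate 5 and 2.33 in M2 replicate 2, but also at 3.56 FPKM in D1 replicate 4 and 2.51 in M6 replicate 2, where TH was listed at 0. DRD5 had a mean of 1.76 FPKM, with a log2 fold change of -1.86 in M6 vs. M2 (standard error 0.87, limma adjusted p = 0.746), and DRD3 had -1.95 in M4 vs. D1 (standard error 1.27, limma adjusted p = 0.714). The part of striatal tissue in the level of DRD1 was not tested.

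HRH2, a histamine receptor, had the smallest adjusted p of the pathway lists. It was at 1.40, 1.57, 0.494, 2.55 and 1.01 FPKM at D1 and at 8.57, 3.93, 4.29, 9.83 and 3.52 FPKM at M2, so the 2 groups did not overlap, which held for 3.82% of all genes tested in M2 vs. D1. From D1 to M2 its log2 fold change was 2.06 (limma standard error 0.46, adjusted p = 0.104), and at M6 the level was 1.92 ± 0.927 FPKM (SD, n = 5). The difference did not pass the threshold, although it did with library quality weights in limma, where it was 1.98 (adjusted p = 0.0213). With those weights 0.882% of all genes were called in M2 vs. D1, against 0% in the main fit. The adjusted p of HRH2 ranged from 0.0213 to 0.374 over the alternatives. HRH3, the receptor on histamine neurons themselves, had a mean of 1.31 FPKM.

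Among the serotonin receptor genes HTR2A and HTR2C had the highest means, 8.35 and 5.46 FPKM, and HTR3A had the lowest, 0.228 FPKM. HTR3B had the smallest p of the 14 genes of the list, at 1.47 on the log2 scale from D1 to M2 (limma standard error 0.42, adjusted p = 0.148), and its groups did not overlap in M2 vs. D1 or M6 vs. D1, as for 3.82% and 2.84% of all genes tested. HTR2B followed with 1.84 in M4 vs. D1 (standard error 0.58, limma adjusted p = 0.322). Among the adrenergic receptors ADRA1B and ADRA2C had the highest means, 3.14 and 2.36 FPKM, and ADRA1D had a log2 fold change of -2.30 in M6 vs. M2 (standard error 0.67, limma adjusted p = 0.746).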

How the data were processed

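The authors trimmed reads with fastp, used HISAT2 2.0.5 for alignment and StringTie 1.3.3b for assembly, and deposited FPKM per gene for each library of ribosomal RNA-depleted, strand-specific sequencing. Gene identifiers were matched to symbols by the RefSeq annotation ARS1.2, the assembly the authors used, and 20610 of 21071 matched. FPKM summed to between 260199 and 377479 per library. The values carry no counts, so depth is unknown and replicate spread carries the precision. Genes that reached 0.1 FPKM in 5 or more libraries were tested on log2(FPKM + 0.1) with limma 3.58.1 in R 4.3.3, with 4 stages as groups, no block and a variance trend, and Benjamini-Hochberg adjustment over all genes tested. The fit was tested on simulated, normally distributed values, and the outcome is not given here. Those values lack the 2 sets of libraries seen for TH. Correlations used 100000 permutations, or all of them for 7 libraries or fewer. The ratio tests used all assignments of 10 libraries to 2 stages. The planned ratio of MAOB to MAOA was not run. Some genes of the lists are not reported here and enter no list sum or count. Python 3.11.15 with pandas 2.3.3, numpy 2.4.6, scipy 1.17.1 and matplotlib 3.10.9 was used.

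The members, lists and tests were chosen with earlier results of these data known. Named genes include the members and the 3 genes most like each member. From each pathway list, genes with the 2 highest means or up to 2 with the smallest p were named. GCH1, GCHFR, PTS, DRD2, HTR3A and SLC6A2 were named outside this rule. The summary over the 7 highest libraries, the subset of 15 libraries and the genes sharing the 7 libraries were chosen after the data were seen. The labels give only the tissue, the age, and the stage with a replicate number. That each replicate is a separate goat's tissue is taken from the methods of the study.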

Additional observations from a re-analysis of the deposited data

Results flagged for a closer look

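In 15 of the 32 groups of 5 libraries, 8 genes at 4 stages, the highest library stood apart from the others by more than Dixon's 95% critical value of 0.71, the gap to the next library over the range of the group. By chance about 1 in 20 groups would be expected to do so in normally distributed values, and 13.4% of the groups of all 16771 genes tested did so on the same linear FPKM scale. The groups are not independent, since TH, SLC6A3, SLC18A2 and DDC share their 7 highest libraries. All 15 were high libraries. TH was at 47.1 FPKM in M6 replicate 5 (next 0.964) and SLC6A3 was at 52.3 FPKM in the same library (next 0.520). SLC18A2 was at 133 FPKM in M2 replicate 2 and 47.1 FPKM in M6 replicate 5. DDC was at 39.5 FPKM in D1 replicate 2, 58.1 FPKM in M2 replicate 2 and 39.0 FPKM in M6 replicate 5. HDC stood apart at every stage, at 2.77 FPKM in D1 replicate 1, 1.41 in M2 replicate 2, 1.57 in M4 replicate 5 and 3.54 in M6 replicate 5. TPH2 was at 1.3 FPKM in M6 replicate 4 (next 0.453). SLC6A4 was at 3.44 FPKM in M4 replicate 3 (next 0.313) and 2.58 FPKM in M6 replicate 3 (next 0.816). DBH was at 2.88 FPKM in M6 replicate 3 (next 0.286). M6 replicate 5 was the library in 5 of the 15 cases.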

How the results depend on the processing

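The count of members called by limma was 0 in each of the 6 comparisons with another pseudocount, no filter or a mean of at least 1 FPKM, quantile or median-ratio scaling, no variance trend, library quality weights, the 10 libraries compared, the adjusted p alone, the replicate block and the 15 libraries, and ranged from 0 to 0 when each library was left out. By the F test it was also 0 with each of these except the 10 libraries and the adjusted p alone, for which it was not run. Deviations from the stage means had a median r of -0.011 in 30 same-numbered pairs of libraries of different stages (range -0.25 to 0.43). In 120 pairs with other numbers the median r was 0.0044 (range -0.36 to 0.42). No pairing by number was thus visible, and the replicate block gave 0 calls. The log2 fold change of HDC in M6 vs. M2 reversed to -0.58 without M6 replicate 5 and ranged up to 1.07 without 1 library. The SLC6A3 to TH ratio in M2 vs. D1 reversed to -0.052 with a pseudocount of 1 FPKM, was 1.96 with 0.01 FPKM, and ranged from 0.37 to 0.87 with a library left out. The TH to DDC ratio in M6 vs. M4, -0.70, ranged from -1.36 to -0.39 with a library left out and from -0.99 to -0.31 with other pseudocounts. With library quality weights the log2 fold change of TH in M6 vs. M4 was -3.62. HDC, TPH2, SLC6A4 and DBH could not be fitted with a mean of at least 1 FPKM.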
